A study of Mus musculus with 2 samples.

Results

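Transsulfuration is the route by which the liver turns the homocysteine left over from methyl transfer into cysteine. Cystathionine beta-synthase and cystathionine gamma-lyase carry out its steps, and the cysteine made is then used for protein, for the antioxidant tripeptide glutathione, or for taurine, which hepatocytes join to bile acids before secretion. The genes described here are 9 in number: Cbs and Cth for transsulfuration, Cdo1 and Csad for taurine synthesis, Gclc, Gclm and Gss for glutathione synthesis, Slc6a6 for taurine uptake and Baat for bile acid conjugation. They were taken by gene name from the non-control probes of the array, and all 9 were found among 31044 gene names, with 2 probes for Cth and 1 for each of the others. All 10 probes were well above background on both arrays, so every gene has a ratio, and 19394 genes of the array have one in all.

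Livers came from Pnpla8-/- mice, which lack a calcium-independent phospholipase A2, and from control WT (Pnpla8+/+) mice, both of strain C57BL/6N. Each genotype was measured on 1 one-colour Agilent array with RNA pooled in equal amounts from 5 animals. The labels give an age of 6 weeks and the series design text 8 weeks, which the sources used here do not settle, and neither the sex nor the way the allele was made is given. The series title concerns choline released from hepatic phosphatidylcholine, whose methyl groups feed the methionine cycle that produces homocysteine. With 1 array per genotype there was no replicate, no test across samples was possible and no p-value is given. Differences between genotype, pool and array position cannot be told apart. Genes are called higher or lower in the Pnpla8-/- pool as a description of these arrays, and a fixed size of 2-fold is used for counts.

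Of the 43020 non-control spots, 65.6% stood well above background with the Pnpla8-/- pool and 70.1% with the WT pool, and none was saturated. Signals are the scanner software's processed intensity, and each was divided by its array's 75th percentile, 1018 for Pnpla8-/- and 1207 for WT, before a ratio was taken. The median log2 ratio of all measured genes was then 0.04. The log2 ratio had a median SD of 0.05 between spots of 1 probe (297 probes) and of 0.10 between probes of 1 gene (4045 genes). Neither is spread between animals, and that between probes need not be technical alone. The Pnpla8 probe read 4.45 in the Pnpla8-/- pool, not well above background, and 144.5 in the WT pool, where it was. Hepatocyte markers ran bright on both arrays, with albumin, Alb, at 392982 in Pnpla8-/- and 393769 in WT livers. The summed scaled signal of 8 hepatocyte markers was 871.1 in Pnpla8-/- and 765.9 in WT livers, and their median log2 ratio was 0.16, or -0.08 without scaling. Alb, whose unscaled signals were near equal, made the largest part of both sums. Of the 8 markers, 6 were above 0, the highest being Cps1, the first enzyme of the urea cycle, at 0.99. The 2 below 0 were Apoa1 at -0.15 and Glul at -0.16.

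Of the 9 genes, 1 was at least 2-fold higher in the Pnpla8-/- pool (Cth) and 1 at least 2-fold lower (Csad). The same size was passed by 1.3% of the 19394 genes on the higher side and 1.85% on the lower side, 3.16% together. Log2 ratios were above 0 for 4 of the 9 genes, against 56.7% of all genes, and below 0 for 5. The median of the 9 was -0.10. Cth, which releases cysteine, and Cdo1, which oxidises it, lay highest, and Csad lay far below 0. Cbs, at 0.27, and Baat, at 0.24, lay slightly above 0. Without scaling Cbs was at 0.02 and Baat at -0.004. Slc6a6 and the genes of glutathione synthesis lay slightly below 0.

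The probe sequences of the genes that passed 2-fold are shown because the signals of Csad and Cth were read with them. Bases are given 5′ to 3′ as the array file lists them, and capitals mark the stop triplets TAA, TAG and TGA in any reading frame. All of these probes lie on the minus strand, in the mm9 coordinates of the array file.
Csad A_51_P268529, first 30 bases, chr15:102007599-102007628: tcacagtatcTGAgtTAGgcTAAaaatcac
Cth A_51_P431737, first 30 bases, chr3:157557697-157557726: ccaaatcttcggaaTAActggacagatcat
Cth A_55_P1959923, whole probe, chr3:157560183-157560242: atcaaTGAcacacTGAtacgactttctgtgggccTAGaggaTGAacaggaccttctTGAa
The whole Csad probe of 60 bases has a stop triplet in each of its 3 reading frames. Cth probe A_55_P1959923 has none in frame 1, and the whole of Cth probe A_51_P431737 has none in frame 2. Each Cth probe thus has a frame without a stop triplet, which does not show that it lies in coding sequence. The exons were not looked up, since no annotation of that build was used here.

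**Figure D1:**
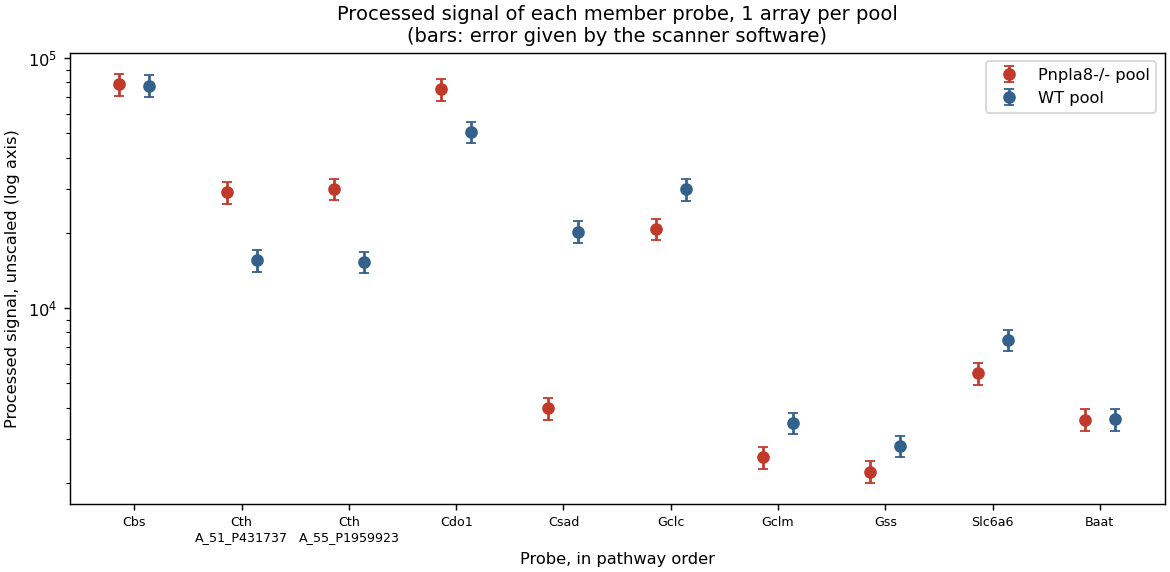
Unscaled processed signal (vertical log axis) of the 10 member probes in pathway order, with the Pnpla8-/- pool in red left of the WT pool in blue and bars for the scanner software's error of a single spot. The pools stand farthest apart for Csad, 3972 in Pnpla8-/- and 20217 in WT, and heights are not to be compared between probes.

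Transsulfuration opens with Cbs, which condenses homocysteine with serine to cystathionine. Its probe, chr17:31749593-31749652 in mm9, read 78811 ± 7881 in the Pnpla8-/- pool and 77537 ± 7754 in the WT pool (± the scanner software's error of 1 spot). For each of the 10 probes that error came to 0.20 on the log2 ratio. It follows the signal and is no measured spread, and the SD between spots of 1 probe was 0.05. The Cbs signals overlap within the scanner error. The log2 ratio was 0.27 after scaling and 0.02 without it, so that most of its size comes from the scaling of the arrays. The ratio was above 0 in every setting run, though filters and probe summaries cannot change it for a gene with 1 bright probe.

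Cth, which splits cystathionine to release cysteine, was higher in the Pnpla8-/- pool with both probes. Probe A_51_P431737 read 29081 ± 2908 in Pnpla8-/- and 15549 ± 1555 in WT livers. Probe A_55_P1959923 read 29957 ± 2996 in Pnpla8-/- and 15302 ± 1530 in WT livers. The log2 ratios of the probes were 1.15 and 1.21, and the gene's ratio was 2.27-fold. The probes differ by less than the usual spread between probes of a gene, and the pools stand apart by more than the scanner error. Of all measured genes, 127 had a higher ratio. Without scaling the log2 ratio was 0.94, just short of 2-fold. Relative to Cbs on the same arrays, Cth was higher by 0.91 on the log2 scale. This difference ran from 0.91 to 0.99 over the main setting and 12 alternatives. A constant scale per array cancels in it and the filters cannot change it, so that range is a limited check.

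Cdo1, cysteine dioxygenase, oxidises cysteine to the sulfinate that leads to taurine or sulfate. Its probe, on chromosome 18, read 75051 ± 7505 in the Pnpla8-/- pool and 50665 ± 5066 in the WT pool. Cdo1 was 1.76-fold higher, a log2 ratio of 0.81 that stayed short of 2-fold in every setting run, where it ranged from 0.57 to 0.87. Its position was near the top of all measured genes, 436 of which had a higher ratio. The genes were also split by mean signal into 10 equal classes. In the brightest class, which held Cdo1 and Cth and had a median of 0.11, 82 of 1940 genes were above Cdo1 and 14 above Cth.

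Csad decarboxylates the same sulfinate to hypotaurine, the direct precursor of taurine, and it was the gene that differed most among the 9. Its probe read 3972 ± 397 in the Pnpla8-/- pool and 20217 ± 2022 in the WT pool, 3.90 times the array's 75th percentile in Pnpla8-/- and 16.7 times in WT livers. The dimmer signal was still 117 times its local background, so the value is a measured ratio and not a bound. Csad was 4.29-fold lower, a log2 ratio of -2.10, which ranged from -2.35 to -2.04 over all settings and passed 2-fold in each. The value table and the settings that change only filters or probe summaries left it at -2.10. For a gene with 1 bright probe they cannot change the ratio, so they are no check on it. Of the 19394 measured genes 12 had a lower ratio. Among the 1939 genes in the signal class of Csad, whose median was 0.07, none had a lower one. Csad has a single probe, so no other probe checks it. In whole liver, fewer cells of a type and less RNA per cell cannot be told apart.

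Cdo1 and Csad, which act one after the other, therefore stood on opposite sides. Csad was lower than Cdo1 by a difference of log2 ratios of -2.91, which ran from -2.91 to -2.83 over the settings. A constant scale per array cancels in such a difference.

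Glutathione synthesis takes cysteine down another branch, and its genes were all within 2-fold, a size that 3.16% of all measured genes passed. Gclc, the catalytic subunit of glutamate-cysteine ligase, read 20721 ± 2072 in the Pnpla8-/- pool and 29845 ± 2985 in the WT pool with its probe at chr9:77641296-77641355 in mm9. Its log2 ratio was -0.28. Gclm, the modifier subunit, read 2525 ± 253 in Pnpla8-/- and 3468 ± 347 in WT livers, a log2 ratio of -0.21. The subunits of the ligase thus differed from each other by little, with a difference of log2 ratios, Gclc minus Gclm, of -0.07 that ran from -0.12 to -0.07 over the settings, close to the spread of 0.10 between probes of a gene. Gss, glutathione synthetase, read 2213 ± 221 in Pnpla8-/- and 2811 ± 281 in WT livers, a log2 ratio of -0.10. The array file leaves the probes of Gclm and Gss unmapped. These ratios were below 0 in every setting, with a low of -0.53 for Gclc, -0.46 for Gclm and -0.34 for Gss, each without scaling. The highs were -0.22, -0.15 and -0.04 in the same order, each with the median as the scale. Filters and probe summaries cannot change the ratio of these genes with 1 bright probe, so they are no check on its sign. The error of a log2 ratio from the scanner software alone was 0.20, here as for every probe, which makes it a fixed cutoff. The Gss difference lies within it, and those of Gclc and Gclm exceed it only slightly. Compared with Cdo1, the competing user of cysteine, Gclc was lower, the log2 ratios being 0.81 for Cdo1 and -0.28 for Gclc, a difference of 1.09.

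Slc6a6, the sodium-dependent taurine transporter, read 5492 ± 549 in the Pnpla8-/- pool and 7461 ± 746 in the WT pool with its probe at chr6:91708620-91708679 in mm9. Its log2 ratio was -0.20, within the scanner error. Baat, which joins taurine or glycine to bile acid CoA esters, read 3575 ± 358 in Pnpla8-/- and 3584 ± 358 in WT livers at chr4:49502933-49502992. Baat had equal unscaled signal within error, a log2 ratio of 0.24 after scaling and of 0.00 (below 0 in the third decimal) without it, the one sign among the 9 genes that turned with a setting. Csad was lower than both, by differences of log2 ratios of -1.91 from Slc6a6 and -2.34 from Baat.

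**Figure D2:**
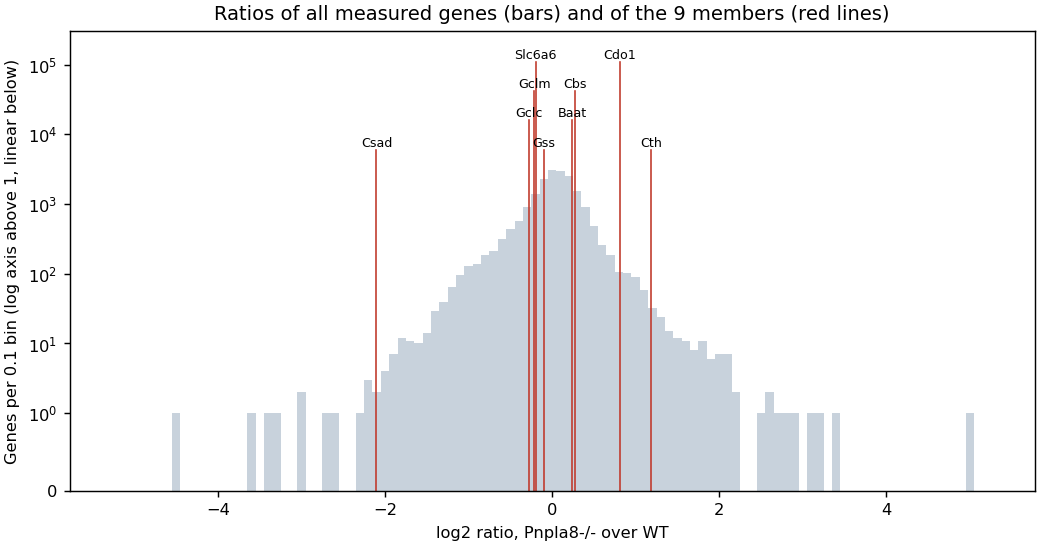
Number of measured genes per 0.1 of log2 ratio, Pnpla8-/- over WT (bars, log axis above 1), with red lines at the ratios of the 9 genes. Csad at -2.10 and Cth at 1.18 lie in opposite tails, Cdo1 at 0.81 inside the upper tail and the other genes between -0.28 and 0.27.

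The split of all genes past 2-fold depended on the scaling, so the all-gene shares are given with it. In the main setting 253 genes were higher and 359 lower. The counts were 114 and 746 without scaling, 138 and 593 on a scale set by E1A spike-ins, and 131 and 124 with a normexp background. Without scaling every ratio shifts by -0.25, the members with all other genes, and with the spike-ins by -0.16. Set against the median of all measured genes, 4 of the 9 genes were above it in the main setting and in each of the 12 alternatives. A constant scale per array cannot change this count, because the genes and the median shift together.

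**Figure D3:**
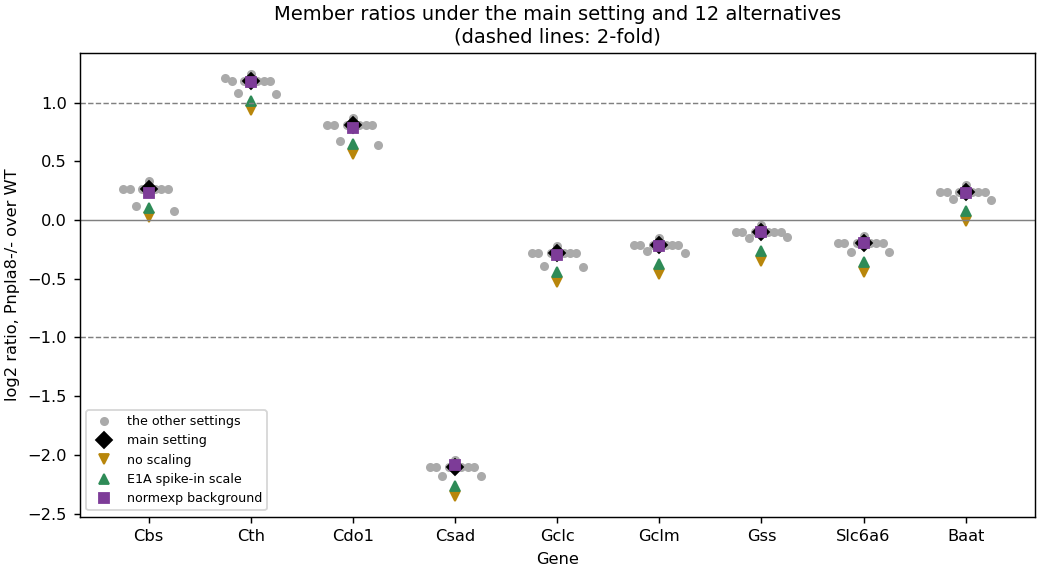
Log2 ratio of each gene, Pnpla8-/- over WT, in the main setting (black diamonds) and under 12 alternative settings (other symbols), with dashed lines at 2-fold. Csad lies beyond the lower line in all 13, Cth passes the upper line in 12 and is at 0.94 without scaling, and the other 7 genes lie between the lines.

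Genes of the surrounding pathways were grouped in the same way. The methionine cycle enzymes, which make homocysteine or return it to methionine, had a median log2 ratio of 0.48 over 9 genes, and of 0.24 without scaling. Of the 9, 7 were above 0, against 56.7% of all measured genes, and 1 was at least 2-fold higher, against 1.3%. In the brightest signal class, 2.37% were at least 2-fold higher and the median was 0.11. Mat2a and Mat2b, above 0 here, did not stay above 0 in all settings. Bhmt, which remethylates homocysteine with betaine, had a log2 ratio of 1.02, which was 0.77 without scaling and so short of 2-fold. Of the enzymes on the way to homocysteine, the hydrolase Ahcy had 0.94, glycine N-methyltransferase, Gnmt, 0.93 and the liver methionine adenosyltransferase Mat1a 0.75. Mtr, the folate-dependent methionine synthase, was at -0.02, and its reductase Mtrr at -0.03.

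Cysteine breakdown outside Cdo1 and Csad, with sulfide oxidation, had a median of 0.27 over 11 measured genes. Of these, 10 were above 0, against 56.7% of all measured genes, and 1 was at least 2-fold higher, against 1.3%. The share at least 2-fold higher was 2.37% in the brightest signal class, whose median was 0.11. Kyat1, Kyat3 and Fmo1 were above 0 in the main setting but not in all settings. Got1, the cytosolic aspartate aminotransferase that also accepts cysteine and cysteine sulfinate, was 3.30-fold higher, with 96232 in Pnpla8-/- and 34592 in WT livers. Ethe1, the mitochondrial persulfide dioxygenase, had 0.78, sulfite oxidase, Suox, 0.35 and the sulfide quinone oxidoreductase Sqor 0.34. Fmo1, a monooxygenase that can oxidise hypotaurine, was at 0.12, and the cysteamine dioxygenase Ado at -0.08. Gadl1, a decarboxylase related to Csad, was not well above background on either array, with a median signal of 3.88 in Pnpla8-/- and 3.19 in WT livers. Without scaling the median of the group was 0.03.

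Uptake of cysteine and cystine gave fewer measured genes, 4 of 9, with a median of 0.06 (-0.19 without scaling). Slc7a11, the cystine-glutamate exchanger, was not well above background in either pool, and its partner subunit Slc3a2 had a log2 ratio of 0.16, below 0 without scaling. Slc3a1 had 0.54, the glutamine transporter Slc1a5 -0.44 and the lysosomal cystine exporter Ctns -0.05. The spot of Slc1a4, a transporter of alanine, serine and cysteine, carried an outlier mark and was left out, and with such spots kept its log2 ratio was 0.98.

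Glutathione use, recycling, breakdown and export had a median of 0.05 over 25 measured genes (-0.20 without scaling), close to that of all genes. None passed 2-fold in either direction, against 3.16% of all measured genes. Glrx, glutaredoxin, had 0.55, the canalicular exporter Abcc2 0.40, the mitochondrial glutathione carrier Slc25a39 0.39 and the exporter Abcc1 -0.78. Glutathione reductase, Gsr, was at -0.20, Gpx1 at 0.27 and Gpx4 at -0.07. For Abcc1 the signal was dim, 75.1 in Pnpla8-/- and 152.4 in WT livers, and its ratio was -0.42 at the highest and -1.02 at the lowest over the settings.

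Bile acid amidation and taurine handling beyond Baat and Slc6a6 had a median of -0.06 over 6 measured genes. Acnat2 had -0.36, the bile salt export pump Abcb11 -0.20, Lrrc8a, a subunit of the volume-regulated anion channel that passes taurine, 0.14 and Acnat1 -0.11. Lrrc8a was below 0 without scaling. With outlier-marked spots kept, Slc27a5, which makes the CoA esters that Baat uses, had 0.31, the bile acid importer Slc10a1 0.29 and the taurine and GABA transporter Slc6a13 -0.32.

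**Figure D4:**
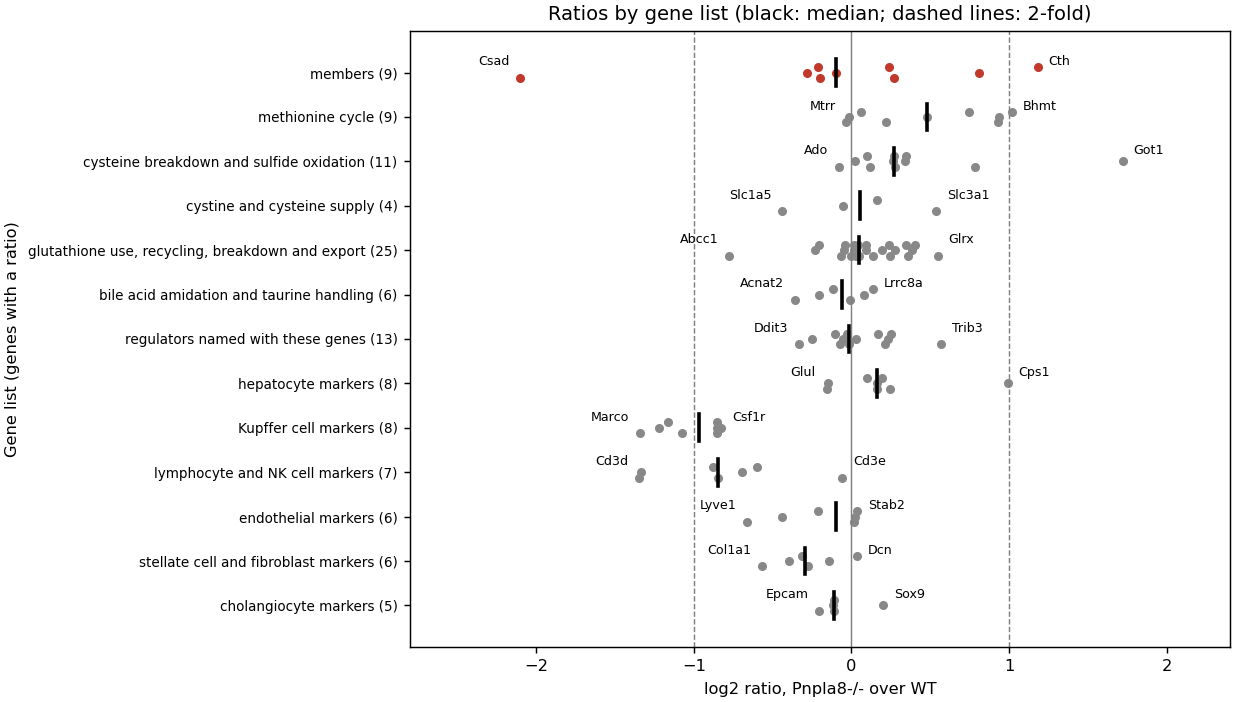
Log2 ratio of each measured gene, Pnpla8-/- over WT, by list, with the 9 genes on top in red, black bars at list medians, dashed lines at 2-fold and the number of genes with a ratio in brackets. The methionine cycle list (median 0.48) and cysteine breakdown (0.27) lie to the right, Kupffer cell (-0.97) and lymphocyte (-0.85) markers to the left, and glutathione use (0.05) near 0.

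Regulators known for these genes had a median of -0.01 over 13. None passed 2-fold, against 3.16% of all measured genes. Trib3 had 0.57, Ddit3 -0.33, Nfe2l2, which encodes the antioxidant factor NRF2, -0.25 and Nr5a2 0.25. Atf4, which encodes an amino acid stress factor, was at -0.01. Nr1h4, the bile acid receptor FXR, was at 0.17 and Nr0b2, the repressor SHP, at 0.03. Keap1 was at -0.03. These are transcript values and say nothing of the activity of the proteins.

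Promoters from RefSeq, assembly GRCm38.p6, which run from upstream of the start into the first transcribed bases, were given for 4 of the 9 genes, 5 windows in all, with 2 starts for Csad. The antioxidant response element core TGACNNNGC was found, on either strand, in 1 of the 5, that of Gclm, and in 12.4% of all 32851 promoter windows. The C/EBP-ATF response element TGATGNAAT was in none of the 5 and in 0.965% of all windows. The match in Gclm is shown for the ligase subunit whose log2 ratio was -0.21, on the plus strand, with the 9 bases of the reverse-strand match in capitals.
Gclm promoter, chr3:122245407-122245447: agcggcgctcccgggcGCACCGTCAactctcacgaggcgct
A match of letters is not a bound site.

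Other liver cell types were followed through their markers. All 8 Kupffer cell markers were below 0 with a median of -0.97, while 56.7% of all measured genes were above 0. Of the 8, 4 were at least 2-fold lower, against 1.85% of all measured genes. The summed scaled signal of the 8 was 37.7 in Pnpla8-/- and 80.9 in WT livers. All 7 measured lymphocyte and NK cell markers of 8 were below 0 in the main setting (Cd3e, at -0.06, did not stay below 0 in all), with a median of -0.85, which was -0.39 with the normexp background, and sums of 1.89 in Pnpla8-/- and 2.75 in WT livers. Endothelial markers had a median of -0.10 (6 genes), with sums of 40.2 in Pnpla8-/- and 44.3 in WT livers. Stellate cell and fibroblast markers had -0.29 (6 genes), with sums of 45.9 in Pnpla8-/- and 45.6 in WT livers. Most of both sums came from Dcn, the only marker of this list above 0, at 0.03. Cholangiocyte markers had -0.11 (5 genes), or 0.06 with the normexp background, with sums of 0.89 in Pnpla8-/- and 0.95 in WT livers. In the main setting the lowest log2 ratios among the measured markers were those of Cd3d at -1.35 and Marco at -1.34. The part of these cells in the lower Csad signal was not tested.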

How the data were processed

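Liver RNA of 1 Pnpla8-/- and 1 WT pool was hybridised to 1 one-colour array each and grouped by the labelled genotype. The deposited scanner files hold spot intensity on a linear scale, background-subtracted and detrended per the file headers, which also name mm9 as the build. The authors used version 11.5.1.1 of Agilent Feature Extraction, per the submitters' processing notes. The deposited value table holds the same intensity divided by a constant per array, 1018.65 for Pnpla8-/- and 1207.25 for WT. No per-sample column was left unused.

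The processed intensity was divided by the array's 75th percentile (non-control spots) and put on the log2 scale. Spots with any outlier mark of feature or local background were left out (913 on the Pnpla8-/- array and 896 on the WT array). Probes well above background on both arrays were used, and genes with several took their median ratio. Symbols came from the RefSeq table of GRCm38.p6 for 28330 probes by accession and 2378 by name, and 8721 kept the file's name. The precision is limited by the number of arrays. No test across samples was possible.

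The 9 genes and all lists were chosen with earlier results of these data known. Named beside the 9 genes are up to 4 genes per list with the largest absolute ratio, and further genes were added after their values were seen. The alternatives tried were scaling by the median, by quantiles, by loess (span 0.3), by spike-ins or not at all, normexp with an offset of 50, the value table, and other filters, probe summaries and thresholds. Tools were Python 3.11.15, numpy 2.4.6, pandas 2.3.3, statsmodels 0.14.6, R 4.3.3 and limma 3.58.1.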

Additional observations from a re-analysis of the deposited data

How the results depend on the processing

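Every gene among the 9 kept its side of 0 under the 12 alternative settings except Baat without scaling, and Csad was at least 2-fold lower in all of them. For the genes with 1 probe, the value table and the filter and probe-summary settings could not change the ratio. Scaling by the median, by spike-ins or not at all only adds a constant to every ratio. Without scaling no gene of the 9 was at least 2-fold higher (0), since Cth had a log2 ratio of 0.94, and the median of the 9 was -0.34. With the spike-in scale that median was -0.26. Over all genes the counts higher and lower were 114 and 746 without scaling, 138 and 593 with the spike-ins, 131 and 124 with normexp, 978 and 1215 without the filter on dim probes, and 145 and 223 among probes above the median signal. At 1.5-fold 2 of the 9 were higher (Cth and Cdo1) and 1 lower, with 857 and 1163 over all genes. At 4-fold 0 of the 9 were higher and 1 lower, with 24 and 14. Shifts without scaling or with the spike-ins come from the scale itself; the cause of the other moves was not tested. No paired analysis was possible because each genotype had 1 array, and no replicate could be left out for the same reason. All 10 probes of the 9 genes were more than 81 times their local background, so depth of signal did not limit them.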

Other observations

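Probes of other genes within 30000 bases of a member's probe, in the array file's coordinates, were read for comparison. Beside Csad, Soat2, which esterifies cholesterol, had a log2 ratio of 0.15 and Igfbp6 0.70, against -2.10 for Csad itself. Beside Cth the transcript 1810013D15Rik had 0.54 with its measured probe. Pknox1 beside Cbs had -0.12 and 0.00 with its probes, and Atg12 beside Cdo1 had 0.01. Grip2 beside Slc6a6 had 0.11 and 0.30, and Mrpl50 beside Baat had -0.15 and 0.22. These are values of 1 array per genotype, with no test.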
